A study of Mus musculus with 17 samples.

Results

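Loops that joined a pair of anchors, neither of them within 5 kb of the transcription start site (TSS) of a protein-coding gene, were described in H3K27ac HiChIP data of embryoid bodies. The members were chosen by their counts and positions: autosomal loops spanning under 1 Mb, with at least 2 read pairs in the pooled bulk libraries and at least 2 in the pooled cluster2 libraries. Of 1211657 loops over the 17 libraries, 19675 met the floor of read pairs and the span limit, and 1362 of these had no promoter anchor. A further 5520 had 1 promoter anchor and 12793 had 2. All libraries came from mouse embryonic stem cells of the R1 line that formed embryoid bodies in hanging drops and were then kept for 4 days in medium with 0.5 µM retinoic acid (RA). The 12 bulk libraries were made from unsorted cells. The 5 cluster2 libraries were, per the study's methods, made from cells sorted as double positive for the surface proteins EpCAM and CD38, and the labels call them only cluster2. No untreated group or second time point was analysed here, and each comparison is between sorted and unsorted cells after the same treatment. Nothing in the labels ties a library to a separate culture, so the spread between libraries may be technical.

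Acetylation of lysine 27 on histone H3 (H3K27ac) marks regulatory DNA in use, and HiChIP with an antibody to it counts read pairs that join regions carrying the mark. A loop without a promoter at either end therefore joins marked regions outside protein-coding start sites, the places where enhancers are usually sought. Enhancers of developmental genes often lie in clusters, inside introns or in gene deserts, and clustered enhancers can contact each other as well as the promoter that they act on. In embryoid bodies, RA drives part of the cells towards a posterior neural fate and opens the Hox clusters, while other cells become endoderm.

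The total number of read pairs in loops was 65178 to 241202 in the bulk libraries and 50508 to 118179 in the cluster2 libraries. The members held 14507 bulk and 13847 cluster2 read pairs, with a median of 5 and 4 per loop. At the lower edge of the floor, 335 members had exactly 2 cluster2 read pairs, 324 had exactly 2 bulk read pairs and 85 had exactly 2 in both pools. Just outside it, 631 loops without a promoter anchor had enough bulk but a single cluster2 read pair, and 541 had enough cluster2 but a single bulk read pair. The anchor closest to a TSS lay 5010 bp from it. Few loops had any cluster2 read pair: of 591428 autosomal loops without a promoter anchor under the span limit, 585985 had no cluster2 read pair at all. A loop that cluster2 lacks thus could not become a member, however many bulk read pairs it had. Loops at the TSS of Gata4 and Foxa2, regulators of endoderm, had a median of 46.1 and 46.0 CPM (read pairs scaled to a fixed library size, without TMM factors) in bulk and of 535 and 489 in cluster2. Under this scaling the loops tested later had a median log2 difference of 2.99 between the groups, and the marker levels are to be read against that shift. For the endoderm factors Gata6 and Sox17 the groups overlapped, with medians of 18.1 and 12.3 in bulk and of 93.1 and 58.8 in cluster2, gaps smaller than the shift. Loops at Neurod1 and Sox2, which act in neurons and in neural or pluripotent cells, had a median of 114 and 61.4 in bulk and were at 0 in the median cluster2 library. Loops at the neural factors Pax6 and Lhx1 were present in cluster2, with medians of 247 and 68.0 in bulk and of 93.1 and 19.8 in cluster2, and the groups overlapped. Sox3, another neural marker, was at 0 in every library. Loops at Epcam and Cd38 themselves had medians of 9.06 and 14.2 in bulk and of 57.9 and 135 in cluster2, of about the size of the shift. Loops at Pou5f1, a pluripotency factor, likewise had a median of 15.7 in bulk and 135 in cluster2, while Nanog, another, was at 0 in every cluster2 library. In pools of cells, fewer cells with a loop and less signal per cell cannot be told apart.

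Regions whose loops carried large differences between the groups are shown first as sequence, because later results turn on their loops. Each line gives the 150-base stretch of a member anchor with the most different motifs among 10 searched, on the plus strand of mm9. Capitals mark a match, on either strand, to any motif of the search. The motif for GATA factors was spelled AGATAAG, and the motif searched for forkhead proteins was spelled TGTTTAC. For the SOX family the search used the word CATTGTT, and for the Wnt effectors TCF and LEF it used the word ATCAAAG. Homeodomain pairs of HOX and PBX proteins were represented by TGATTNAT, and the octamer bound by POU family proteins was represented by ATGCAAAT. The E-box of neural bHLH proteins was spelled CAGATGG, whereas the site of the AP-1 dimer was spelled TGANTCA. The remaining searches were for the TEAD family, with the word ACATTCC, and for the core of the CTCF site, with the word AGGGGGC. The AP-1 letters can overlap those of HOX-PBX and the E-box. A loop is called higher or lower in cluster2 where its Benjamini-Hochberg adjusted p was under 0.05 in edgeR's quasi-likelihood test. Of all 5369 loops tested, 38.1% were higher and 22.4% were lower. The first 4 stretches are from members that were higher in cluster2 and the last 4 from members that were lower.
Tcf7l2, anchor upstream of the gene, chr19:55786314-55786463: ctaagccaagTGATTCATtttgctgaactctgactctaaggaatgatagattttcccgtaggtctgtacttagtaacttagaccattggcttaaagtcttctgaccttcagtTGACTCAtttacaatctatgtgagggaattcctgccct
Tcf7l2, anchor in an intron, chr19:55934666-55934815: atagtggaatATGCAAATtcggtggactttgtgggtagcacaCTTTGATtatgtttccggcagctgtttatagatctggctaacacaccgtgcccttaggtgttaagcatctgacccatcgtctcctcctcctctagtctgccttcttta
Lpar3, intergenic anchor, chr3:145867431-145867580: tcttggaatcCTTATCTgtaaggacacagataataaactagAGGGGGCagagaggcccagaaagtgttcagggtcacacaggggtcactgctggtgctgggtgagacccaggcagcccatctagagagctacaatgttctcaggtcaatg
Actn4, anchor in an intron, chr7:29716464-29716613: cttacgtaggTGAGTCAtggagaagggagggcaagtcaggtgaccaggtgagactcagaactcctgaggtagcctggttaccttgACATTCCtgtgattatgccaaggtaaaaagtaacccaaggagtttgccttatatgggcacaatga
Skap1, anchor in an intron, chr11:96436527-96436676: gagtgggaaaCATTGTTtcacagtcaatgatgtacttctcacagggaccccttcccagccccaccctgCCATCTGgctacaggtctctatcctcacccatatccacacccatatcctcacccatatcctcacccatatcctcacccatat
Hoxc4, intergenic anchor, chr15:102896787-102896936: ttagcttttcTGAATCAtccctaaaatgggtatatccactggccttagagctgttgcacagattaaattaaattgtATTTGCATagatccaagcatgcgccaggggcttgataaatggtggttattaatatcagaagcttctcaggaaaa
2810055G20Rik, anchor in an intron, chr16:77398895-77399044: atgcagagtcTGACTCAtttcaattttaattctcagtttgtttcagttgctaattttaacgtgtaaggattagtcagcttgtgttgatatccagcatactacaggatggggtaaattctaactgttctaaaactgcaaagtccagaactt
Cryba4, intergenic anchor near Miat, chr5:112670388-112670537: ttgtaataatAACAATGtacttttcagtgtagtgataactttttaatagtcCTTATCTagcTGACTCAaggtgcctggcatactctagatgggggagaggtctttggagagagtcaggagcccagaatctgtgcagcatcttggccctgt

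The AP-1 letters stood in stretches of both kinds, in the upstream Tcf7l2 and the Actn4 anchor as well as in the Hoxc4, the 2810055G20Rik and the Cryba4 anchor. A GATA match stood in the Lpar3 stretch and in the Cryba4 stretch. Over the central 1 kb of the 1560 member anchors, AP-1 letters were in 25.3%, the E-box in 24.4% and the CTCF core in 21.6%. In the 181692 other autosomal anchors without a TSS in the window these shares were 29.7%, 21.2% and 10.7%, and in the 31079 promoter anchors 22.9%, 18.3% and 21.6%. Base composition moved with these shares: mean GC content was 49.7% in member anchors, 44.4% in the other anchors without a TSS and 51.5% in promoter anchors. GATA letters were in 17.1% of the 205 anchors used only by members higher in cluster2 and in 10.4% of the 240 used only by members lower in cluster2, beside 16.1% of the other anchors without a TSS. FOX letters went the other way, with 10.2% and 12.5%. For the E-box of neural bHLH factors the order was opposite, with 28.3% of the anchors of lower members, and for AP-1 the shares were 31.2% and 23.3%. These shares are descriptions of windows of equal length, and a match is not a measured binding site.

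Among the members with enough read pairs to be tested, 7 had the start of a named microRNA gene within 5 kb of an anchor, and 2 more had such a gene between the anchors. These 5 microRNA genes were found by their mm9 positions, and all were matched to RefSeq, whose table on GRCm38.p6 gave the mature sequences. Capitals mark the seed, bases 2 to 8, and no seed was shared between the lines.
miR-21a-5p: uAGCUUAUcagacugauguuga
miR-193a-3p: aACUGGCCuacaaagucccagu
miR-219a-5p: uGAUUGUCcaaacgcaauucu
miR-9-5p: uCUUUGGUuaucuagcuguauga
miR-152-3p: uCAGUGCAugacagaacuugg

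Members were shorter than loops that met the same floor and had a promoter anchor. The median span, between the middles of the anchors, was 46502 bp in members, 63679 bp in loops with 1 promoter anchor and 64924 bp in loops with 2. Of the members, 27.4% spanned under 20 kb and 28.8% spanned 100 kb or more, against 19.6% and 35.7% of loops with 1 promoter anchor. Weighted by read pairs within each library, the median span of members was below that of loops with 1 promoter anchor in 17 of 17 libraries. The mean log2 ratio was -0.66 ± 0.15 (SD, n = 17) in bulk and cluster2 together, -0.74 ± 0.10 (SD, n = 12) in bulk and -0.47 ± 0.06 (SD, n = 5) in cluster2. The weights are the read pairs that the floor used and every library scores the same loops, so these values are a description. The weighted median of several bulk libraries sat on a single loop at Sfi1, at the start of the assembled sequence of chromosome 11. Without the first 200 kb of that sequence the ratio was -0.81 ± 0.10 (SD, n = 12) in bulk and -0.37 ± 0.09 (SD, n = 5) in cluster2.

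**Figure D1:**
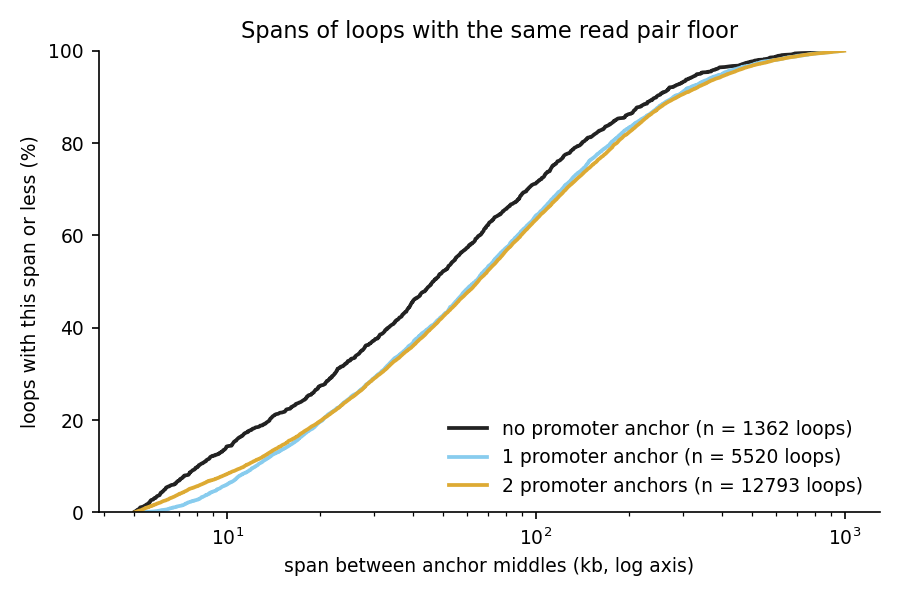
Share of loops (y axis, %) with a given span or less (x axis, kb between anchor middles, log axis) for the 1362 members and for the loops with 1 and 2 promoter anchors that met the same floor. The curve of the members lies to the left of the other 2 curves, which nearly coincide, with a median of 46502 bp against 63679 and 64924 bp.

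The longest members crossed most of a megabase with few read pairs. The longest, chr3:16751967-16756053 to chr3:17692752-17695661, spanned 940196 bp between the surroundings of Ythdf3 and Gm10742 and had 14 bulk and 2 cluster2 read pairs. Another member ended at the same second anchor and spanned 921614 bp. Among the members with at least 20 read pairs, the longest spanned 723048 bp, from chr9:41036099-41038139 near Ubash3b to chr9:41757804-41762531 near Sorl1. It enclosed 1 whole protein-coding gene, 2610203C20Rik, and each of its anchors also looped to the promoter of that gene. It had 38 read pairs, in 11 of 12 bulk libraries, and 2 read pairs in cluster2, both in replicate 1. In CPM after TMM scaling the 5 cluster2 libraries had 5.39, 0, 0, 0 and 0, and the bulk libraries ranged from 0 to 84.8 with a median of 27.8. The log2 fold change of cluster2 over bulk was -3.98 ± 0.64 (SE, edgeR quasi-likelihood test, Benjamini-Hochberg adjusted p = 1.003e-08), and 1 bulk library without a read pair overlapped cluster2.

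The next in length joined chr13:83860014-83872360, at the start of the lincRNA C130071C03Rik, to chr13:84485865-84489212 and spanned 621351 bp. Mef2c, a transcription factor of muscle and neurons, had the nearest TSS, 196038 bp from the first anchor, and Mir9-2 lay between the anchors at chr13:83878411-83878497. MicroRNA miR-9 is abundant in neural progenitors. The loop had CPM of 0, 0, 11.8, 0 and 3.26 in cluster2 and of 0 to 58.6 in bulk, with a median of 17.1, and read pairs in 7 of 12 bulk libraries. Its log2 fold change was -2.66 ± 0.68 (SE, edgeR adjusted p = 0.0002731), although the groups overlapped at 0 and the loop did not pass with library size as the sole scaling, at -0.62. The last of the 3 longest spanned 591413 bp across Gap43, a growth cone protein, from near Lsamp to near Zbtb20. It had 19 bulk and 12 cluster2 read pairs and did not pass the test (log2 fold change -0.95 ± 0.56, SE, edgeR adjusted p = 0.1252), and with library size as the sole scaling its log2 fold change was 1.27. Without cluster2 replicate 2 the value was -1.63 and passed the test. The member with the most enclosed genes, 29, spanned 824905 bp on chromosome 3 from near Adamtsl4 to near Hfe2 with 2 bulk and 3 cluster2 read pairs.

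Of the 1362 members, 606 had both anchors outside protein-coding genes and 361 had an anchor in a gene and the other outside. A further 318 (23.3%) had both anchors in the body of the same gene, and 77 joined different genes. Members within a gene were the shortest, with a median of 22363 bp, against 39584 bp with both anchors outside genes and 120234 bp between different genes. By anchor, 43.7% of the 1560 member anchors overlapped a protein-coding gene, close to the 45.7% of the other anchors without a TSS in the window. In detail, 15.3% of member anchors touched an exon and 28.4% lay in introns only. Member anchors were nearer to a TSS, at a median of 26379 bp against 51136 bp, and wider, at a median of 3493.5 bp against 2261 bp. In 681 of the 1362 members both anchors had the same nearest gene, and in 548 (40.2%) a protein-coding TSS lay between the anchors. At least 1 whole gene was enclosed by 351 members.

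**Figure D2:**
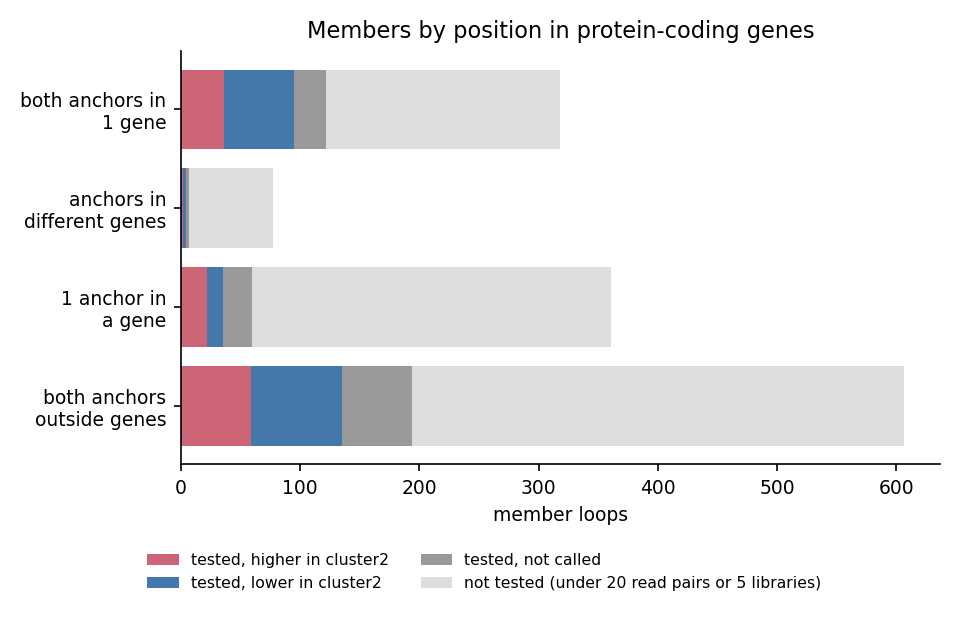
Number of members (x axis) by the position of their anchors in protein-coding genes (y axis), split by the edgeR call. The light grey part holds the 979 members with too few read pairs to be tested. Members with both anchors outside genes form the longest bar, 606, and those between different genes the shortest, 77.

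The label of the members holds only for protein-coding genes. In 321 members (23.6%) a noncoding gene or pseudogene started within 5 kb of an anchor: a lincRNA in 125, a processed transcript in 94, a microRNA in 63 and a snRNA in 41. When the start sites of every annotated gene counted, 939 members were left.

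Most members belonged to sets that also reached a promoter. Of the 1560 anchors, 1235 (79.2%) were also in a loop of the same floor to a promoter anchor. Both anchors were so linked in 998 members, 1 anchor in 290 and neither in 74. In 875 members (64.2%) both anchors looped to 1 same promoter anchor, closing a triangle. Anchors were shared among members as well: 663 were in 2 or more, 118 in 4 or more, and the 1560 anchors fell into 486 linked groups, of which the largest held 20 anchors.

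The anchor with the most member loops, 10, was chr8:122888661-122899867 in the gene model Gm20388, which overlaps Gse1, with 100 bulk and 30 cluster2 read pairs. Gm20388 held both anchors of 47 members, more than any other gene, and the nearest TSS to an anchor belonged to Gse1, which encodes a protein of a chromatin repressor complex, in 40 members. Of 13 tested members within Gm20388, 2 were higher and 11 were lower in cluster2, of which 3 lay above 0 with library size as the sole scaling. Since the gene models overlap, these loops cannot be assigned to either. An intergenic anchor at chr12:88139093-88144726, with Gm6772 as the nearest gene, had 8 member loops with 218 bulk and 64 cluster2 read pairs. An anchor at chr3:51590705-51594534 in Maml3, a coactivator of Notch signalling, had 8 with 92 and 108 read pairs. An anchor at chr4:106657834-106661441 in Ssbp3, a partner of LIM homeodomain complexes, had 8 with 62 and 66. The fifth, at chr2:30573067-30575671 near 1700001O22Rik, had 8 with 79 and 48. After Gm20388, the genes that held most members were Maml3 with 16, Cuedc1 with 11 and Skap1 with 10.

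The balance between the groups was taken first over all members. Of the read pairs in loops that met the floor, members held 12.6% ± 0.89 (SD, n = 12) in bulk, with a lowest value of 11.3% and a highest of 14.1%. In cluster2 they held 6.90% ± 0.24 (SD, n = 5), from 6.65% to 7.17%. The groups did not overlap, and every bulk library lay above every cluster2 library. Without the start of chromosome 11, the means were 11.3% and 6.57%. As a share of the whole library the order was the other way, 0.873% ± 0.18 (SD, n = 12) in bulk and 3.38% ± 0.11 (SD, n = 5) in cluster2. This second measure divides by all listed loops, and those of bulk are spread over many more anchors. The floor used these counts, so no test was made. A cluster2 library held a read pair of 49.9% to 72.4% of the members, and a bulk library of 22.8% to 61.2%.

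**Figure D3:**
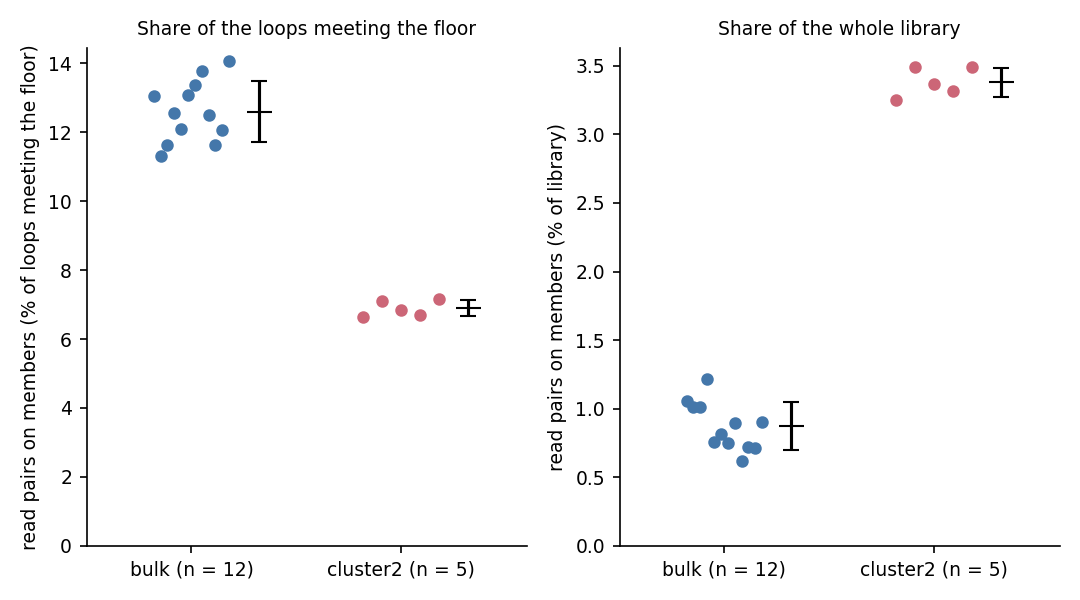
Read pairs on the 1362 members in each library, as a share (y axis, %) of the loops that met the floor (left) and of the whole library (right). Points are libraries, and the bars show mean and SD of 12 bulk and 5 cluster2 libraries. The groups do not overlap in either panel, and their order is opposite in the 2 panels.

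Single loops were tested over the whole table: 5369 loops that reached 20 read pairs and were seen in 5 libraries or more, of which 383 were members. Of these members 119 were higher in cluster2 (31.1%), where 38.1% of all tested loops were higher. A further 150 were lower (39.2%), where 22.4% of all tested loops were lower, and 114 were not called. The set of all tested loops includes loops that did not meet the floor or limits of the members. Of 1203 tested loops of the same floor with 1 promoter anchor, 41.9% were higher and 16.96% were lower. Of 2742 with 2 promoter anchors, 39.82% were higher and 5.507% were lower. The median log2 fold change was -0.14 over the tested members and 0.78 over all tested loops. These values describe loops chosen with the same counts. With library size as the sole scaling the members split into 231 higher (60.3%) and 21 lower (5.48%), so the direction of a loop is relative to the scaling. Of all tested loops, 76.9% were higher and 13.8% were lower under that scaling, so the excess of lower members over all tested loops was not seen there. Loops of the same floor with promoter anchors were not compared under that scaling. Among the members called lower, 105 stayed below 0 under that scaling and 45 did not, and no member called higher fell below 0. After TMM scaling, every cluster2 library lay above every bulk library in 35 tested members, and in 15 every one lay below. The same count was not made over all tested loops, so it does not set members apart from other loops.

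By position, 36 of 122 tested members within a gene were higher and 59 were lower, with a median log2 fold change of -1.12, and 16 of the 59 lay above 0 with library size as the sole scaling. With both anchors outside genes 59 of 194 were higher and 76 lower, 24 of them above 0 under that scaling, and the median was -0.10. Among tested members with an anchor in a gene and the other outside, 22 of 60 were higher and 13 lower, 5 of them above 0 under that scaling, with a median of 0.56. By span, 63 of 191 tested members under 20 kb were higher and 77 lower, and of 35 with 100 kb or more 10 were higher and 15 lower.

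Tcf7l2 encodes TCF4, the transcription factor that carries Wnt signals to target genes, and was the nearest gene of 15 members. The 6 that were tested were all higher in cluster2, with a median log2 fold change of 2.99, and the 15 together had 48 bulk and 474 cluster2 read pairs. The highest log2 fold change was that of a loop of 5841 bp inside the gene, between the intronic anchors chr19:55933955-55937394 and chr19:55939242-55943790. Its CPM in the 5 cluster2 libraries was 64.7, 63.8, 71.1, 73.1 and 71.8. In bulk it ranged from 0 to 16.6 with a median of 0, and 2 of 12 libraries had a read pair. All cluster2 libraries were above all bulk libraries, and the log2 fold change was 4.53 ± 0.60 (SE, edgeR adjusted p = 2.041e-12).

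Upstream of Tcf7l2, a set of anchors was joined by several members. The loop from chr19:55773165-55776195, where the lincRNA 4930552P12Rik starts, to chr19:55786158-55791336, whose sequence is shown above, spanned 14067 bp. Its CPM was 97.1, 112, 94.7, 78.7 and 91.4 in cluster2 and 0 to 27.1 in bulk, with a median of 6.03. The groups did not overlap (log2 fold change 3.24 ± 0.45, SE, edgeR adjusted p = 2.419e-11). The first of these anchors also looped over 42438 bp to the Tcf7l2 promoter, with 3 bulk and 55 cluster2 read pairs. Another anchor, chr19:55666685-55672303 in Vti1a, a gene of vesicle transport, was joined to the second over 119253 bp. That loop had CPM of 45.8, 23.9, 77.0, 56.2 and 55.5 in cluster2 and 0 to 15.7 in bulk (log2 fold change 4.09 ± 0.63, SE, edgeR adjusted p = 1.519e-09). It too did not overlap between the groups, and its Vti1a anchor looped over 147624 bp to the Tcf7l2 promoter.

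Mir21 lay in the gap between 2 anchors that a member joined, at chr11:86397569-86397660 on the minus strand. The most covered of 3 members around it ran from chr11:86387362-86390210 to chr11:86391682-86396320, both outside protein-coding genes, with Tubd1 as the nearest gene 18665 bp away. Its CPM was 97.1, 156, 107, 129 and 166 in cluster2. In bulk it ranged from 0 to 49.9 with a median of 16.5, below every cluster2 library. The log2 fold change was 3.01 ± 0.40 (SE, edgeR adjusted p = 2.651e-12). The loop between the anchors on either side of Mir21 had 8 bulk and 101 cluster2 read pairs (log2 fold change 3.11 ± 0.47, SE), and the last of the 3 had 2 and 33. At Mir193, a loop of 8414 bp was also higher in cluster2, with 19 bulk and 57 cluster2 read pairs (log2 fold change 1.15 ± 0.43, SE, edgeR adjusted p = 0.01337). All 3 loops at Mir219-2, in and beside Urm1, were lower in cluster2. They had 47, 27 and 26 bulk read pairs and 9, 2 and 2 cluster2 read pairs, with log2 fold changes of -2.59, -3.50 and -3.44. Mir152 lay between the anchors of a loop of 131999 bp with 20 bulk and 2 cluster2 read pairs (log2 fold change -3.08 ± 0.71, SE).

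Lpar3 encodes a receptor of lysophosphatidic acid and Actn4 an actin-crosslinking protein. The Lpar3 loop, chr3:145866358-145872953 to chr3:145875413-145877733, had CPM of 56.6, 55.8, 47.4, 39.3 and 81.6 in cluster2 and read pairs in 2 of 12 bulk libraries, with 16.1 as the highest value. Its groups did not overlap (log2 fold change 3.88 ± 0.57, SE, edgeR adjusted p = 4.277e-10), and both of its anchors looped to the Lpar3 promoter. The Actn4 loop, between intronic anchors at chr7:29714765-29718495 and chr7:29721122-29727465, had CPM of 70.1, 39.9, 41.5, 28.1 and 88.1 in cluster2 and had read pairs in 3 of 12 bulk libraries. Every cluster2 library was again above every bulk library (log2 fold change 3.84 ± 0.58, SE, edgeR adjusted p = 7.016e-10).

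Klf6, a zinc finger factor of the endoderm list, had 1 member, between chr13:5801419-5805574 and chr13:5836038-5846220, and both anchors also looped to its promoter, with 91 and 125 cluster2 read pairs against 3 and 8 in bulk. The member itself had CPM of 51.2, 91.7, 11.8, 56.2 and 104 in cluster2 and 0 to 24.1 in bulk. Replicate 3 of cluster2 lay within the bulk range, and the log2 fold change was 3.45 ± 0.52 (SE, edgeR adjusted p = 7.147e-10). Of 3 members nearest to the 21 endoderm regulators, 2 were tested and both were higher, at Klf6 and at Lifr, the receptor of leukemia inhibitory factor. The untested member, near Foxa2, had 2 bulk and 3 cluster2 read pairs. Of all tested loops, 38.1% were higher, and the list was chosen with earlier results of these data known. Of 8 members nearest to the epithelial list, the single tested one was higher. It enclosed Krt18 and began 8374 bp from a TSS of Krt8, the keratin that pairs with it. Its CPM was 8.09, 19.9, 23.7, 16.9 and 6.53 in cluster2 and 0 to 12.4 in bulk, so the groups overlapped (log2 fold change 1.86 ± 0.67, SE, edgeR adjusted p = 0.01281), and over the 10 libraries that share replicate numbers the call was lost with the replicate block and, at 1.71, without it. The single member of the basement membrane list, near Sparc, had 2 bulk and 5 cluster2 read pairs and was not tested.

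**Figure D4:**
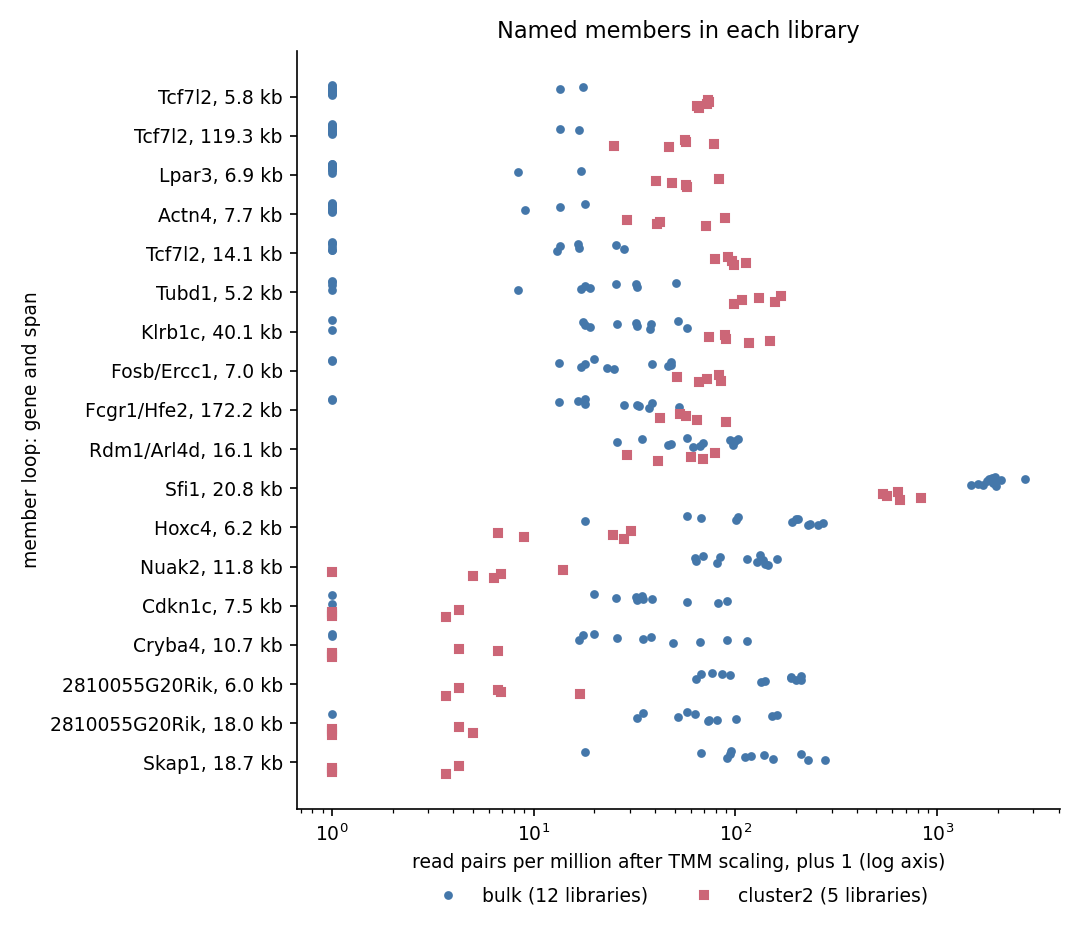
TMM-scaled CPM plus 1 (x axis, log axis) of 18 named members in each library, ordered by fold change, with the gene that holds or lies nearest to the loop and the span (y axis). Circles are the 12 bulk and squares the 5 cluster2 libraries, and values of 1 stand for 0 read pairs. The cluster2 libraries lie above all bulk libraries for the upper 8 members and overlap them for the 2 after these.

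Skap1, an adaptor protein of T cells, lies beside the Hoxb cluster and held both anchors of 10 members with 535 bulk and 31 cluster2 read pairs. The lowest log2 fold change of any tested member after TMM scaling was that of the loop between its intronic regions chr11:96436143-96441671 and chr11:96456410-96458815. Its CPM was 2.70, 0, 0, 0 and 3.26 in cluster2, and in bulk it reached 277 with a median of 114. Every cluster2 library was below every bulk library (log2 fold change -5.81 ± 0.55, SE, edgeR adjusted p = 1.041e-22). Both anchors looped across more than 200 kb to the Hoxb cluster: the first to the promoter of Hoxb3 with 31 bulk and 2 cluster2 read pairs, and the second to that of Hoxb7 with 17 and 3. Of 13 members in or nearest to Skap1, 10 were tested and 10 were lower, with a median log2 fold change of -3.75. Hoxb genes pattern the hindbrain and trunk along the body axis.

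Downstream of the Hoxc cluster, 13 members had Hoxc4 as a nearest gene, with 433 bulk and 91 cluster2 read pairs, and the 6 tested were all lower, 1 of them above 0 with library size as the sole scaling. The most covered joined chr15:102889766-102893218 to chr15:102894737-102900672. Its CPM was 27.0, 7.97, 23.7, 5.62 and 29.4 in cluster2 and up to 271 in bulk, with a median of 193. In 11 of 12 bulk libraries it was above every cluster2 library, and 1 bulk library overlapped (log2 fold change -3.04 ± 0.38, SE, edgeR adjusted p = 6.398e-14), and with library size as the sole scaling the value was -0.73 and did not pass. The first anchor looped to the promoter of Hoxc4 with 90 bulk and 8 cluster2 read pairs and to that of Hoxc5 with 85 and 4. Over the list of 47 Hox and TALE genes, 20 members had a listed gene as the nearest, among them Hoxc4, Hoxc12, Meis2 and Tgif1. Of the 9 tested, 8 were lower, 2 of these above 0 with library size as the sole scaling, and 1 was not called, with a median log2 fold change of -2.59 against 0.78 over all tested loops. The 6 tested Hoxc4 loops, several of which share an anchor, are among these 9.

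The gene 2810055G20Rik on chromosome 16 held an anchor, chr16:77398837-77401807, that was shared by its strongest loops. The loop of 6046 bp to chr16:77404439-77408298 had CPM of 2.70, 15.9, 5.92, 5.62 and 3.26 in cluster2 and 62.9 to 210 in bulk, with a median of 136. After TMM scaling the groups did not overlap (log2 fold change -4.30 ± 0.46, SE, edgeR adjusted p = 2.712e-18). With library size as the sole scaling the value was -2.09 and the groups overlapped. There, cluster2 replicate 2 had 4 read pairs of 85966 and bulk replicate 5 had 4 of 108672. The loop of 18015 bp from the same anchor had read pairs in 2 of 5 cluster2 and 11 of 12 bulk libraries (log2 fold change -4.95 ± 0.58, SE, edgeR adjusted p = 3.509e-15). At Cryba4, which encodes a lens crystallin, a loop of 10704 bp ran from the start of the lincRNA Miat, at chr5:112655625-112659078, to chr5:112665500-112670611. Its CPM was 0, 0, 0, 5.62 and 3.26 in cluster2 and 0 to 113 in bulk, with a median of 29.5 (log2 fold change -4.23 ± 0.62, SE, edgeR adjusted p = 3.137e-10). Cdkn1c, an imprinted inhibitor of the cell cycle, had a loop of 7535 bp with CPM of 2.70, 0, 0, 0 and 3.26 in cluster2 and 0 to 90.3 in bulk, with a median of 32.4 (log2 fold change -4.10 ± 0.63, SE, edgeR adjusted p = 2.055e-09). After TMM scaling, 10 of 12 bulk libraries were above every cluster2 library for the Cryba4 and the Cdkn1c loop, and 2 were at 0. With library size as the sole scaling their log2 fold changes were -2.30 and -2.16.

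Nuak2, a kinase of the AMPK family, held a loop of 11831 bp between chr1:134218298-134220290 and chr1:134229432-134232818. Its TMM-scaled CPM was 5.39, 3.99, 5.92, 0 and 13.1 in cluster2 and 62.3 to 161 in bulk, without overlap (log2 fold change -3.96 ± 0.47, SE, edgeR adjusted p = 3.853e-15). With library size as the sole scaling the value was -1.76 and the groups overlapped. There, cluster2 replicate 5 had 4 read pairs of 103559 and bulk replicate 5 had 4 of 108672. It lies in the distal part of chromosome 1, from 130 Mb, where 60.7% of all 298 tested loops were lower in cluster2 and 8.05% were higher, with a median log2 fold change of -3.11. The distal part of chromosome 2, from 150 Mb, stood apart as well, with 54.1% of 270 tested loops lower. Outside these segments the members numbered 351 tested, 116 higher and 132 lower, with a median log2 fold change of -0.08. Of all 4801 tested loops there, 41.6% were higher and 18.25% were lower, with a median of 0.94. The part of the segments in the Nuak2 value was not tested.

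Genes of neural progenitors and neurons were nearest to few tested members. All of these were lower in cluster2, where 22.4% of all tested loops were lower. Untested members went both ways: near Sox4, a member had 6 bulk and 12 cluster2 read pairs and another had 14 and 3. Of 12 members at neural progenitor regulators 3 were tested and 3 were lower, at Hes5, Sox4 and Pou3f2. The Hes5 loop, at an effector of Notch signalling, spanned 8381 bp and had CPM of 5.39, 0, 5.92, 0 and 6.53 in cluster2 and 0 to 78.7 in bulk, with a median of 21.5 (log2 fold change -2.52 ± 0.61, SE, edgeR adjusted p = 0.000113). The Sox4 loop lay 167813 bp or more from the TSS of that gene, a factor of progenitors, and had 22 bulk and 2 cluster2 read pairs. The Pou3f2 loop, at a POU factor of neural progenitors, had 21 and 2. Of 17 members at neuron genes, 1 was tested. It ended 7057 bp from the TSS of Lhx3, a LIM homeodomain factor of motor neurons, and was lower, with 24 bulk and 3 cluster2 read pairs (log2 fold change -2.94 ± 0.67, SE, edgeR adjusted p = 4.491e-05). With library size as the sole scaling, neither the Hes5 nor the Lhx3 loop passed the test, at -0.38 and -0.90. None of the 4 members at pluripotency genes had enough read pairs to be tested, and the most covered of them, near Sall4, had 7 bulk and 3 cluster2 read pairs.

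Members at genes of the retinoid pathway and at immediate early genes were called in both directions, beside 38.1% higher and 22.4% lower of all tested loops. Of 9 tested members at retinoid genes 3 were higher, 3 were lower and 3 were not called. The Nrip1 loop, at a corepressor of nuclear receptors, spanned 69050 bp and had CPM of 45.8, 23.9, 41.5, 33.7 and 29.4 in cluster2 and 0 to 37.1 in bulk, with 11 of 12 bulk libraries below every cluster2 library (log2 fold change 1.57 ± 0.49, SE, edgeR adjusted p = 0.003242), a call lost with the replicate block, at 1.41. The other 2 that were higher were loops near Rdh10, which makes retinal in RA synthesis, with 34 and 17 cluster2 against 9 and 4 bulk read pairs. Among those that were lower was a loop near Cyp26b1, an enzyme that degrades RA, with 36 bulk and 17 cluster2 read pairs (log2 fold change -1.42 ± 0.46, SE), which lay above 0 with library size as the sole scaling. Of 10 tested members at AP-1 and immediate early genes 4 were higher, at Fosb, Fos and Nr4a1, and 1 was lower, at Btg2, which lies in the distal part of chromosome 1 described above. The Fosb loop of 7030 bp had CPM of 64.7, 83.7, 71.1, 50.6 and 81.6 in cluster2 and 0 to 47.2 in bulk, without overlap (log2 fold change 1.49 ± 0.39, SE, edgeR adjusted p = 0.0003536). Each of its anchors looped to the Fosb promoter, with 87 and 85 cluster2 against 5 and 4 bulk read pairs.

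**Figure D5:**
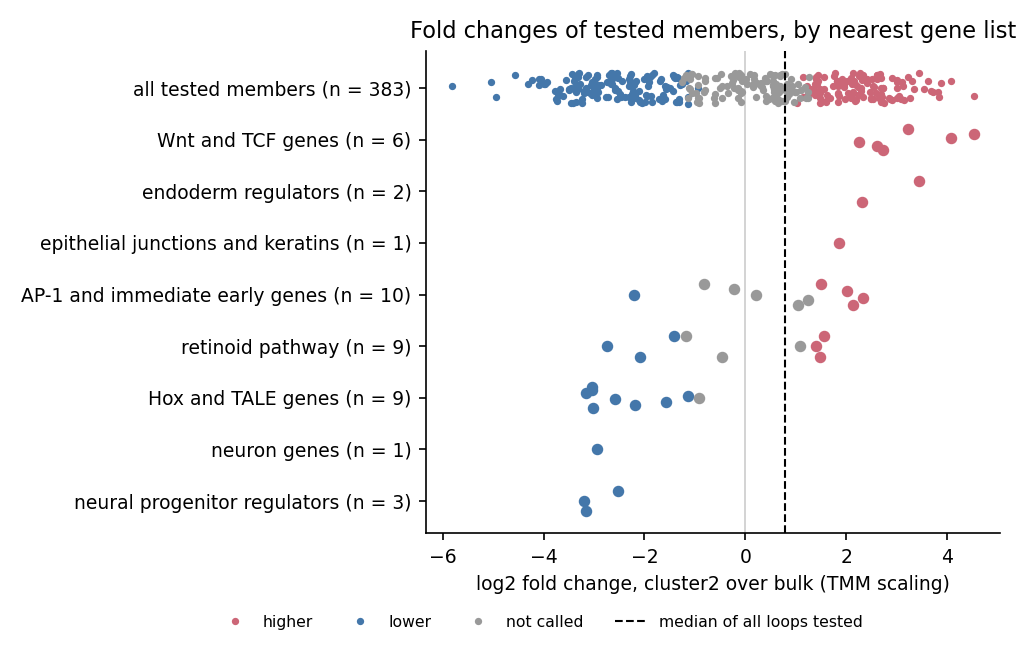
Log2 fold change of cluster2 over bulk (x axis) for the 383 tested members and for those whose nearest protein-coding gene is on a list (y axis). Each point is a loop, coloured by its edgeR call, and the dashed line is the median of all tested loops, 0.78. The 6 members at Wnt and TCF genes, all of them at Tcf7l2, lie to the right of the line. The 9 at Hox and TALE genes, 6 of them at Hoxc4, lie to the left of it. Loops that share an anchor are drawn as separate points.

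Several of the most covered members lay at multicopy sequence, where reads of similar copies may not be told apart. The loop with the most read pairs, 1790 in bulk and 838 in cluster2, joined chr11:3030194-3039007 to chr11:3041312-3069426 in Sfi1, a centrosomal gene, at the edge of the assembled sequence. The 4 members in this region held 15.2% of the bulk and 7.48% of the cluster2 read pairs of all members. The CPM of the top loop was 655, 833, 563, 540 and 636 in cluster2 and 1466 to 2727 in bulk, without overlap. Its log2 fold change was -1.54 ± 0.22 (SE, edgeR adjusted p = 8.759e-11) after TMM scaling, and 0.79 with library size as the sole scaling, a reversed direction. A loop between U2 snRNA genes near Rdm1 and Arl4d had 65 bulk and 71 cluster2 read pairs and did not pass the test (log2 fold change -0.26 ± 0.35, SE, edgeR adjusted p = 0.5241), with a log2 fold change of 2.07 when library size was the sole scaling. A loop of 172192 bp from a U1 snRNA gene near Fcgr1 to the surroundings of Hfe2 was higher in cluster2, with 26 bulk and 82 cluster2 read pairs (log2 fold change 1.22 ± 0.38, SE, edgeR adjusted p = 0.003515), but without cluster2 replicate 1 it had a log2 fold change of 0.95 and did not pass. At Klrb1c, a receptor of natural killer cells, a loop of 40147 bp enclosed the gene and had 28 bulk and 135 cluster2 read pairs. Its CPM was 116, 147, 88.8, 73.1 and 88.1 in cluster2 and at most 56.4 in bulk, so the groups did not overlap (log2 fold change 1.84 ± 0.36, SE, edgeR adjusted p = 2.483e-06). Neither of its anchors was in a loop to a promoter anchor.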

How the data were processed

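The authors mapped H3K27ac HiChIP reads of 12 bulk and 5 cluster2 libraries to mm9 with HiC-Pro, called loops with hichipper and left out libraries with few strong loops. The deposited values are counts of read pairs per loop as the caller gave them, not normalized, with 1 the lowest value listed. The methods' text does not say which samples gave each anchor set, and cluster2 loops use far fewer anchors.

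Overlapping anchors were joined into 216081 and counts summed per loop, which dropped 700 read pairs that fell within a joined anchor. Of 214331 autosomal anchors, 214328 had a GATC site at both edges. Members were loops whose anchors both lay over 5 kb from every protein-coding transcript start (GENCODE vM1, mm9). Genes and lists were assigned by the nearest such start. The members and lists were chosen with earlier results of these data known. Loops that reached 20 read pairs and were seen in 5 libraries or more were tested with edgeR 4.0.16 in R 4.3.3 (TMM, glmQLFit and glmQLFTest, Benjamini-Hochberg over all 5369 loops, adjusted p under 0.05), which was tried on simulated data first. CPM are counts divided by TMM-scaled library size, or by unscaled library size for loops at the start sites of marker genes. The TMM factors ranged from 0.42 to 0.82 in bulk and from 2.92 to 3.52 in cluster2, so they lower cluster2 values relative to bulk. Spans used Python 3.11.15, numpy 2.4.6 and pandas 2.3.3.

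The rule for named members took the 12 with the most read pairs without shared anchors, the 4 largest called fold changes in each direction, the most covered member of each list, the 3 longest with at least 20 read pairs and the 5 anchors with most members. Loops at microRNA genes, other loops of the lists and the longest of all members were named after their values were seen. A loop that the rule takes, and some genes of the lists, are not reported here. Counts of each pair of libraries of a group differed by more than sampling noise in a chi-square test over anchors (largest p 7.24e-08), so none was counted as a duplicate. The p does not measure the size of this excess. Chi-square per degree of freedom was 1.344 to 3.398 in bulk and 1.079 to 1.192 in cluster2, so cluster2 libraries differed little beyond sampling noise. Alternatives were other start site windows and floors, DESeq2 1.42.0, library size alone, other filters, a replicate block, shared anchors, no start of chromosome 11 and each cluster2 library left out. Start sites of genes in place of transcripts, the 10 libraries of the block without it, and the spans and shares without the start of chromosome 11 were added after seeing the data.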

Additional observations from a re-analysis of the deposited data

Results flagged for a closer look

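Among 33 values tested in the 5 cluster2 libraries, 3 had a highest library that stood apart from the other 4. For values with a normal distribution, chance alone sets apart about 1 in 20 such groups, and this rate need not hold for loops with few read pairs. The loop of 6046 bp in 2810055G20Rik had 15.95 CPM in cluster2 replicate 2, and without that replicate its log2 fold change was -4.93, against -4.30 with it. The loop of 723048 bp between Ubash3b and Sorl1 had 5.392 CPM in replicate 1 and 0 in the others, and its log2 fold change was -5.25 without that replicate, against -3.98 with it. Without replicate 1 this loop had no cluster2 read pair and would not be a member, so -5.25 is not a measured size. The loop of 621351 bp near Mef2c had 11.84 CPM in replicate 3, and its log2 fold change was -3.55 without it, against -2.66 with it. In the Ubash3b and the Mef2c loop the high library had 2 read pairs. The cause was not tested.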

How the results depend on the processing

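The number of members was 1636 and 982 with start site windows of 2.5 and 10 kb, 939 with every annotated gene, 788 and 365 with floors of 3 and 5 read pairs, and 1161 to 1283 without 1 cluster2 library. The median span was 48610, 44830 and 44180 bp under the first 3 of these, 33150 and 22250 bp under the floors, and 42340 to 45770 bp without 1 cluster2 library. With 1 start site per gene, added after seeing the data, there were 1776 members with a median span of 47750 bp and 28.27% with both anchors in 1 gene, a share that was 26.02% and 26.03% under the floors and 23.3% to 23.69% without 1 cluster2 library. The span difference kept its sign with other start site windows, a floor of 5, spans of at least 20 kb, each loop counted a single time and no start of chromosome 11, from -0.9689 to -0.2625, and from -0.6594 to -0.5779 without 1 cluster2 library, and was not computed for every annotated gene, a floor of 3 or 1 start site per gene. The bulk minus cluster2 difference in the share of read pairs, 5.706 percentage points, was 2.752 with each loop counted a single time per library, 4.712 without the start of chromosome 11, and 5.25 to 5.576 without 1 cluster2 library.

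Members higher and lower in cluster2 numbered 231 and 21 with library size alone, 242 and 161 with at least 10 read pairs, 36 and 41 with at least 50, and 270 and 52 without a filter, where 809, 100 and 1354 members were tested in the last 3. The setting without a filter had no minimum of read pairs but still required a loop to be seen in at least 3 libraries. Deviations of bulk and cluster2 libraries of the same number had correlations from -0.0182 to 0.0249 over loops. With few read pairs per loop, counting noise can hide a shared deviation, so these values cannot decide whether the numbers pair libraries. The replicate block, over 10 libraries, gave 74 and 124, and the same 10 libraries without it, added after seeing the data, 88 and 142. Without 1 cluster2 library there were 86 to 99 higher and 141 to 148 lower. DESeq2 gave 100 and 136. With anchors in loops of both groups there were 136 and 135, and the median log2 fold change of tested members was 0.19 in place of -0.14. Of the members called, 44.2% were higher in the reported fit, 91.7% with library size alone, 83.9% without a filter and 60.05% with at least 10 read pairs. Of all loops called, these shares were 62.95%, 84.8%, 70.17% and 57.96%. Called members thus leaned lower than called loops in general in the reported fit, but higher with library size alone, without a filter and with at least 10 read pairs. The remaining settings kept the order of the reported fit. Reversed directions were 0.7945 for Sfi1 with library size alone, 2.069 for Rdm1 and Arl4d and 1.268 for Lsamp and Zbtb20 under the same scaling, 0.3957 for Rdm1 with at least 10 read pairs, 0.999 for Rdm1 and 0.2192 for Lsamp without a filter, and 0.08733 for Rdm1 on shared anchors. DESeq2 changed no direction or call of the 26 named members tested, and the block ended 3 calls, at Fcgr1, Nrip1 and Krt8, of which Fcgr1 and Krt8 were also lost over the same 10 libraries without it. Without a filter the calls at Sfi1, Hes5, Lhx3 and Mef2c were lost (-0.22, -1.35, -1.86 and -1.58). With at least 50 read pairs the call at Fcgr1 was lost (0.75) and Rdm1 was called lower (-0.75). The cause of these changes was not tested. Few read pairs per loop limit single loops most: 979 members were not tested.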
